A study of Mus musculus with 18 samples.

Results

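The genes described here are 10 members of the oocyte DNA damage checkpoint and of the apoptosis machinery it switches on: Trp63, Trp53, Chek1, Chek2, Atm, Bbc3, Pmaip1, Bax, Bcl2l10 and Mcl1. They were picked out by gene symbol, by a rule that holds no measured value but was written with earlier results of these data known, and are 10 of the 28252 genes with a TPM value and of the 53715 genes with a read count. RNA was sequenced from 18 libraries of mouse oocytes of the strain C57Bl/6j x CBA/J, all collected in vivo, in 6 groups of 3 libraries each: oocytes of resting primordial follicles, those of primary follicles, which have begun to grow, and MII oocytes (mature, arrested at the second meiotic metaphase), each from sham and from NTY samples. NTY is used here as the name of a treatment, since the labels do not spell it out, and no age, dose or time was given. The labels do not say whether the 3 libraries of a group came from separate animals, so p-values measure the spread between these libraries, which may be technical.

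Oocytes from primordial and primary follicles (the 12 follicle libraries) were cut from tissue by laser microdissection. Their caps were pooled by stage, their RNA was linearly amplified, and libraries were made with a kit that enriches coding exons with probes. MII oocytes were collected whole and made into libraries by Smart-seq II. The labels describe both methods in a shared protocol, so which library had which was read from it and is not given per sample. On that reading, the stage of an oocyte cannot be told apart from its library method wherever MII oocytes are compared with follicle oocytes. The follicle libraries held between 15149564 and 29205503 reads counted to genes and the MII libraries between 8652089 and 9978830. A gene with 3 counts or fewer is treated as not detected. That floor lay between 0.103 and 0.198 CPM (reads of the gene scaled to a common library size) in follicle libraries and between 0.301 and 0.347 CPM in MII libraries, which covers counting error only. In the 12 follicle libraries the summed TPM (a level per transcript length, scaled to the same sum in each library) of 13 oocyte genes such as Ddx4, Zp3 and Gdf9 ranged from 2.94 to 1930, against 10400 to 17100 in the 6 MII libraries. The summed TPM of 8 granulosa cell genes was 370 to 3690 in follicle libraries and 6.43 to 27.6 in MII libraries, and that of 6 stroma genes was 460 to 7490 against 0 to 1.29. Primordial NTY replicate 3 stood apart, with the lowest oocyte sum (2.94) and with 8 of the 13 oocyte genes at or under 3 counts. In such mixed material, fewer oocytes and less RNA per oocyte cannot be told apart.

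Germ cells police their DNA with a checkpoint of their own. ATM is the kinase that senses double-strand breaks, CHEK2 is the kinase it activates, and ATR-activated CHEK1 is the kinase that also restrains entry into division. Resting oocytes store the TAp63 form of the Trp63 product, which CHEK2 and casein kinase 1 switch on by phosphorylation, so that much of this control happens on the protein and not on the RNA. TAp63 and p53 then raise transcription of Bbc3 (PUMA) and Pmaip1 (NOXA), BH3-only proteins that release the pore-forming effector BAX. MCL1 is a BCL2-type guardian that holds the effectors back, and BCL2L10 is an oocyte-rich BCL2 relative.

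The stretch just upstream of a gene start is where many p53-family sites lie, and Bax, Bbc3 and Trp53 are shown because they are classical members of that circuit whose starts are in the RefSeq table. Each run is the 250 bases before a RefSeq start on build GRCm38.p6, written 5′ to 3′ on the gene's own strand. Bbc3 has more than 1 start there, and the first listed is shown. Capitals mark a match to the p53 half-site consensus, which is its own reverse complement, so that 1 search covers both strands.

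Bax, chr7:45466899-45467148, minus strand: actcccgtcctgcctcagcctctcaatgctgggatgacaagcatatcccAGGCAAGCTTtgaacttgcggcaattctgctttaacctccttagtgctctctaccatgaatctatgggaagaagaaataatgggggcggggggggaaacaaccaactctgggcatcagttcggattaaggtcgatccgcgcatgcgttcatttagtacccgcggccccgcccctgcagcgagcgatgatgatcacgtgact

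Trp53, chr11:69580109-69580358, plus strand: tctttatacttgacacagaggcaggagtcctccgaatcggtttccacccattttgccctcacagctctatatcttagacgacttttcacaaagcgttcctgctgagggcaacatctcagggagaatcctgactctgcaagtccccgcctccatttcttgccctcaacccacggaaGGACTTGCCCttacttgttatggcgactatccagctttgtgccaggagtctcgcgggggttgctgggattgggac

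Bbc3, chr7:16309333-16309582, plus strand: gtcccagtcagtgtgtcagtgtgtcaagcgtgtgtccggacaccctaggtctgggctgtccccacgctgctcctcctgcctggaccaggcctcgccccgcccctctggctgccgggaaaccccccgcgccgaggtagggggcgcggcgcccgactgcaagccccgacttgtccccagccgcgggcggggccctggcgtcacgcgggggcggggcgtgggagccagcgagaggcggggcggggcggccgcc

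The half-site began 201 bases before the start of Bax (position -201) and 75 bases before that of Trp53 (position -75). The window of Bbc3 shown is 76.4% G and C, against 54.0% for Bax and 52.8% for Trp53. The windows of its further starts are 72.4% and 81.6% G and C. Of the 9 starts that the table holds for 7 of the members, these 2 held the half-site, against 2341 of all 32851 starts (7.13%). A match of this kind is a description of letters and not a site of binding, and a window without one says only that these letters are not in it.

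Atm was a low-abundance transcript at every stage. Its TPM was 0, 0.738 and 0.902 in the primordial sham libraries, 3.64, 2.22 and 2.40 in the primordial NTY libraries, 5.21, 0.461 and 6.02 in the primary sham libraries and 2.54, 16.5 and 3.07 in the primary NTY libraries. In MII oocytes it was 1.58, 1.46 and 0.682 in sham and 0.425, 0 and 0 in NTY. The sham and NTY values of Atm did not overlap at the primordial stage, where NTY was the higher, nor at the MII stage, where NTY was the lower, and they overlapped at the primary stage. The difference passed the test at none of the 3 stages. By CPM, 1 of the 10 members had sham and NTY values that did not overlap at the primordial stage, 1 at the primary stage and 2 in MII oocytes. The primary case was Chek1, by a hair, at 45.2 CPM in both primary sham replicate 3 and primary NTY replicate 2. Its TPM values overlapped there. The share among all genes was not counted, so nothing particular to Atm or to the members is read from these counts.

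Chek2, the checkpoint kinase upstream of TAp63, was at the edge of detection. It had more than 3 counts in 6 of the 12 follicle libraries and in 4 of the 6 MII libraries, with at most 3.88 TPM (primordial sham replicate 3). In MII oocytes it was at 0.868, 1.14 and 0.715 TPM in sham and at 0.585, 0 and 0 TPM in NTY. These MII values rest on 11, 12 and 7 counts in sham and on 6, 0 and 0 counts in NTY, and the gene was too low there for the filter to let it be tested.

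Chek1 was the most abundant kinase of the set and the most uneven across follicle libraries. It reached 893 TPM in primordial sham replicate 1 and 189 TPM in replicate 2, but 0.0335 TPM, a single read, in replicate 3. The primordial NTY libraries had 53.8, 4.10 and 0.0821 TPM, the primary sham libraries 135, 111 and 28.4 TPM and the primary NTY libraries 6.81, 31.7 and 21.2 TPM. MII oocytes were far more even, with 394, 667 and 521 TPM in sham and 372, 427 and 650 TPM in NTY. Within a library Chek1 was above Chek2 in 11 of the 12 follicle libraries and in all 6 MII libraries. Across the 12 follicle libraries, log2 Chek1 TPM ran against the summed granulosa genes (Pearson r = -0.79) and the summed stroma genes (r = -0.75), which is a description over libraries that share amplification and depth. The part of those cells in the levels of Chek1 was not tested.

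Trp63, the genome guardian of resting oocytes, was detected in 11 of the 12 follicle libraries and in all 6 MII libraries. It was at 4.57, 0.042 and 10.1 TPM in primordial sham, 8.28, 38.9 and 0.423 TPM in primordial NTY, 48.1, 34.5 and 13.0 TPM in primary sham and 8.46, 0.383 and 78.7 TPM in primary NTY. MII oocytes had 7.70, 14.4 and 9.54 TPM in sham and 9.48, 6.66 and 10.4 TPM in NTY. The 3 primary sham libraries were above the 3 primordial sham libraries, while in NTY the 2 follicle stages overlapped. The share of all genes that separate in this way was not counted. The follicle libraries spanned 0.042 to 78.7 TPM around a median of 9.25 and the MII libraries 6.66 to 14.4 around a median of 9.51, so the medians were close and the MII spread lay within the follicle spread. The lowest follicle value fell in the library with the highest oocyte sum (primordial sham replicate 2), and over the 12 libraries the correlation with the oocyte sum was 0.44. The gene lies on chromosome 16 and overlaps the pseudogene Gm27005 on its own strand, and how reads over both were counted is not given.

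Trp53 stood low in follicle libraries and well above them in MII oocytes. It was at 0, 16.5 and 3.49 TPM in primordial sham, 0.111, 12.9 and 3.04 TPM in primordial NTY, 5.98, 19.0 and 5.87 TPM in primary sham and 7.43, 0.277 and 15.1 TPM in primary NTY. In MII oocytes it was at 45.8, 91.7 and 57.2 TPM in sham and at 79.6, 57.9 and 60.3 TPM in NTY. The lowest MII library was 2.40 times the highest follicle library. Even so, on counts scaled across all 18 libraries the difference did not pass (log2 fold change 2.46 in sham and 2.67 in NTY, adjusted p = 0.212 and 0.166, edgeR). How many of all genes separate in this way was not counted.

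The order of the 2 p53-family genes turned over between the sets of libraries. Trp63 had the higher TPM in 10 of the 12 follicle libraries and in none of the 6 MII libraries. The mean log2 ratio of Trp63 to Trp53, on TPM + 1, was 0.84 ± 2.02 (SD, n = 12) in follicle libraries and -2.63 ± 0.25 (SD, n = 6) in MII libraries, a difference of -3.47 (two-sided exact permutation test over libraries, p = 0.00226, adjusted over 3 ratios 0.00226). Within sham the difference was -3.22 (exact permutation p = 0.0952, adjusted 0.143) and within NTY -3.72 (exact permutation p = 0.0238, the smallest that 3 libraries against 6 can give, adjusted 0.0238). The 1 added to each TPM weighs on such a ratio where a gene is low, as in primordial sham replicate 2 (Trp63 at 0.042 TPM). A ratio within a library is thus not free of the scaling between libraries, and it joins stage with library method and cell content. The 3 ratios were chosen after the levels were seen, so their p-values are descriptive.

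Bbc3 and Pmaip1, the BH3-only genes that TAp63 and p53 are known to raise, were at or near 0 in follicle oocytes. Bbc3 had 48 counts (2.65 TPM) in primordial sham replicate 2, 7 counts (0.936 TPM) in MII sham replicate 2 and 0 counts in every other library. Pmaip1 had 0 counts in all 12 follicle libraries. In MII oocytes Pmaip1 had 0, 58 and 7 counts in sham (0, 6.22 and 0.811 TPM) and 0, 69 and 120 counts in NTY (0, 7.51 and 13.4 TPM). Neither gene was therefore detected in any follicle library given NTY, at floors of 3 counts per library.

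Bax was present in some libraries and listed at 0 in others of the same group. Its TPM was 0, 0 and 13.3 in primordial sham, 84.3, 64.6 and 0 in primordial NTY, 42.2, 3.27 and 21.7 in primary sham and 119, 0 and 109 in primary NTY. MII oocytes had 7.36, 7.57 and 5.84 TPM in sham and 18.6, 14.6 and 0 TPM in NTY. In each NTY group 2 libraries lay above all sham libraries of that stage and the third was at 0, so the groups overlapped. On chromosome 7 the annotation places Gm45808, a protein-coding gene of the same strand, over Bax. How reads over both genes were counted is not given.

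Bcl2l10, the oocyte-rich BCL2 relative, was the dominant transcript of the set in MII oocytes. It was at 17100, 13000 and 15600 TPM in MII sham and at 19900, 15200 and 12600 TPM in MII NTY, which was 94.3% to 97.6% of the summed TPM of the 10 genes in each MII library. In follicle libraries it was at 2.78, 5.87 and 0 TPM in primordial sham, 0.733, 1.39 and 0 TPM in primordial NTY, 3.08, 0.434 and 6.93 TPM in primary sham and 1.34, 1.38 and 4.19 TPM in primary NTY. The lowest MII library was 1820 times the highest follicle library. Bcl2l10 was detected in 10 of the 12 follicle libraries, with at most 68 counts, and there its log2 level went with the oocyte sum (r = 0.60) and against the stroma sum (r = -0.78).

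Mcl1, the short-lived guardian used by most cell types, varied widely in follicle libraries and was low in MII oocytes. Its TPM was 0, 0.275 and 74.5 in primordial sham, 164, 66.1 and 0.853 in primordial NTY, 70.7, 211 and 97.2 in primary sham and 104, 0.205 and 0.402 in primary NTY. MII oocytes had 3.05, 3.74 and 4.04 TPM in sham and 11.6, 5.81 and 1.98 TPM in NTY. The follicle median was 68.4 TPM and the MII median 3.89 TPM, but 5 follicle libraries lay under 1 TPM, so the sets overlapped and the difference did not pass (log2 fold change -4.45 in sham and -3.72 in NTY, adjusted p = 0.159 and 0.207, edgeR).

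The highest of the 10 genes was Bcl2l10 in all 6 MII libraries, while in the follicle libraries it was Mcl1 in 5, Chek1 in 4, Bax in 2 and Trp53 in 1. Bcl2l10 exceeded Mcl1 in 4 of the 12 follicle libraries and in all 6 MII libraries. The mean log2 ratio of Bcl2l10 to Mcl1 was -2.65 ± 3.67 (SD, n = 12) in follicle libraries and 11.48 ± 0.55 (SD, n = 6) in MII libraries, a difference of 14.12 (exact permutation p = 0.000108, the smallest these libraries can give, adjusted over 3 ratios 0.000323). It was 14.50 within sham (exact permutation p = 0.0238, adjusted 0.0714) and 13.75 within NTY (exact permutation p = 0.0238, adjusted 0.0238). This pair was picked after the gap in Bcl2l10 had been seen, and the adjustment covers only the 3 chosen ratios. The p-values of all 3 ratios are therefore descriptive. The third ratio, Chek1 to Chek2, differed by 4.13 (exact permutation p = 0.0014, adjusted 0.0021), by 2.89 within sham (exact permutation p = 0.167, adjusted 0.167) and by 5.38 within NTY (exact permutation p = 0.0238, adjusted 0.0238). Chek2 had 0 counts in 5 follicle and 2 MII libraries, so with the added 1 this ratio mostly follows the level of Chek1.

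**Figure D1:**
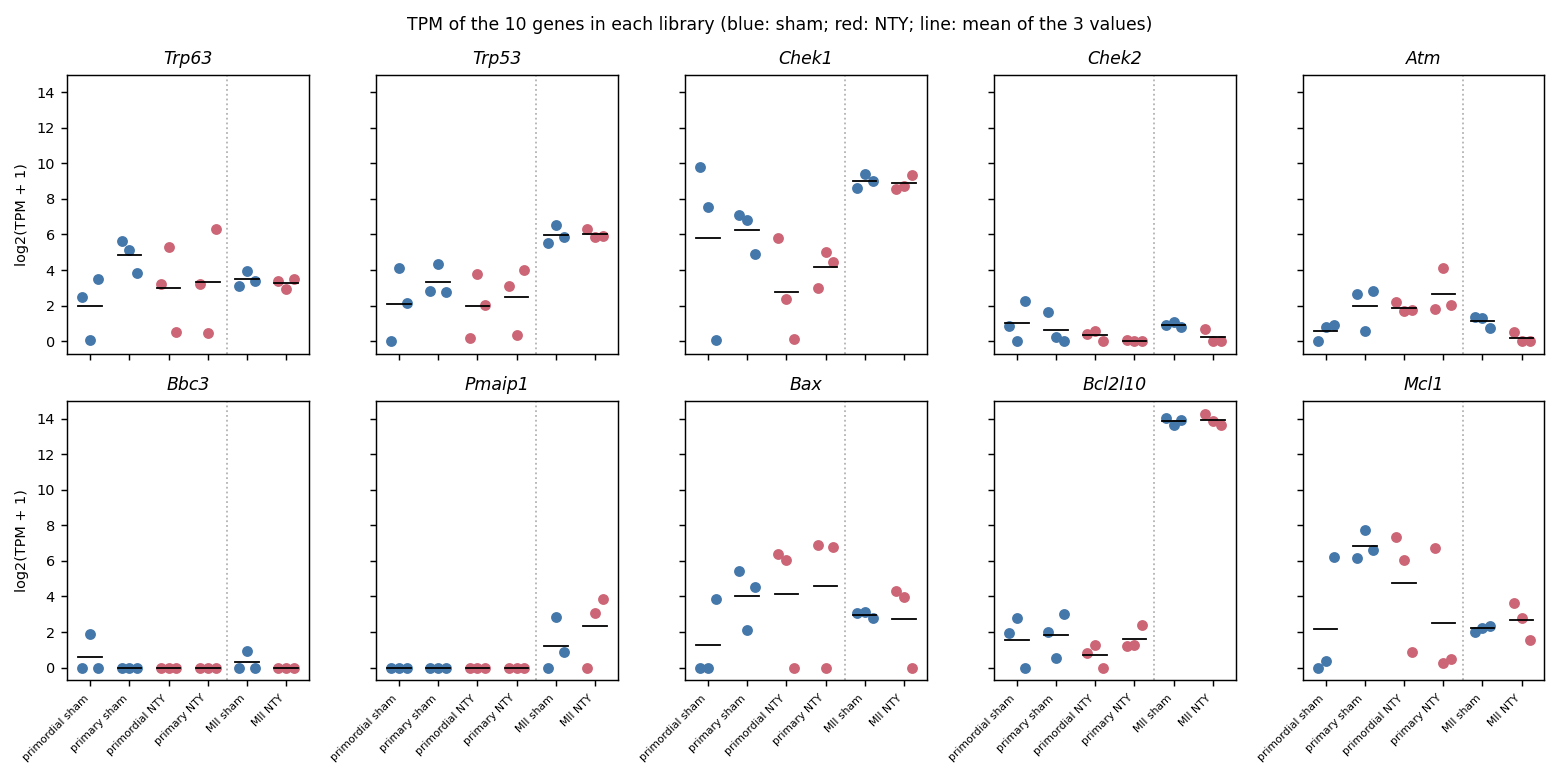
Level of each of the 10 genes as log2(TPM + 1), 1 point per library and 3 libraries per group, sham in blue and NTY in red; the line is the mean of the 3 plotted values and the dotted line separates follicle from MII libraries. Bcl2l10 and Trp53 are the genes of the 10 whose MII points all lie above their follicle points, and Pmaip1 is at 0 in all 12 follicle libraries. How many of all genes separate in this way was not counted, so nothing particular to these genes is read from it.

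**Figure D2:**
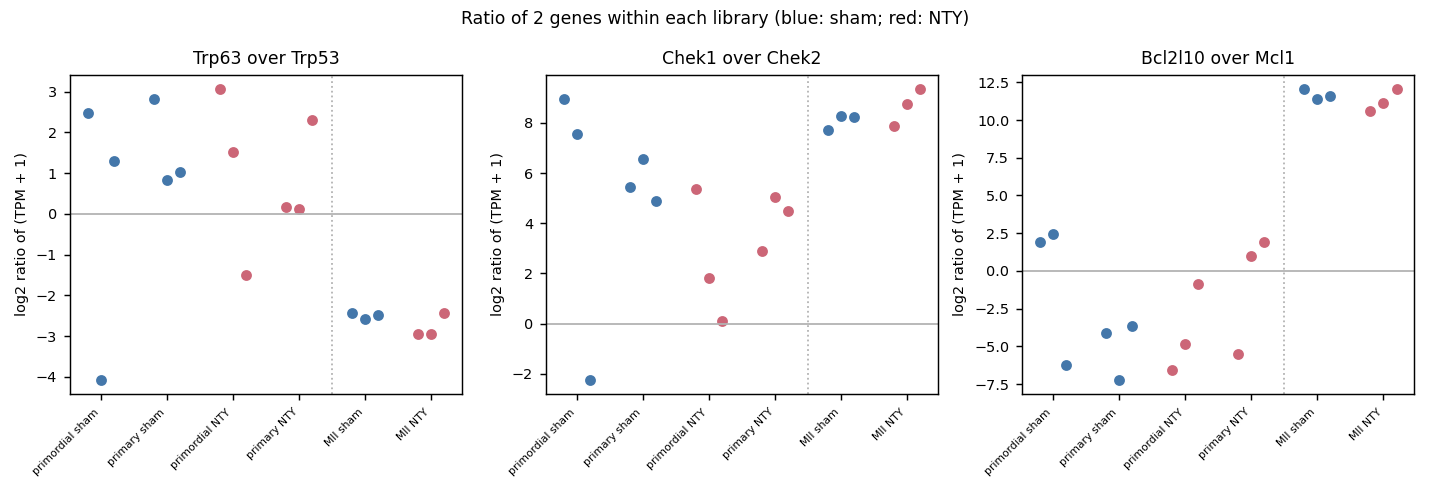
Ratio of 2 genes within each library, as the difference of log2(TPM + 1), 1 point per library, sham in blue and NTY in red. Trp63 over Trp53 is below 0 in all 6 MII libraries, with a mean of -2.63, and Bcl2l10 over Mcl1 averages 11.48 there.

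To ask whether NTY went with a change in these genes, NTY was compared with sham at each stage. None of the 10 genes changed past the threshold (edgeR, adjusted p under 0.05 over all genes tested) in primordial, primary or MII oocytes. Of all genes, 1 of 10522 passed at the primordial stage (0.0095%), 0 of 10522 at the primary stage (0.0%) and 0 of 12209 in MII oocytes (0.0%). At an unadjusted p under 0.05, 1145, 858 and 280 genes passed in that order, and none of the 8 members tested at each stage. By DESeq2 the counts of all genes were 760, 479 and 29 and those of members 0 at each stage. The Bbc3 and Pmaip1 counts of the follicle libraries, and the Chek2 and Bbc3 counts of the MII libraries, were too low to be tested.

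MII oocytes gave the narrow intervals. For Bcl2l10 the log2 fold change of NTY against sham was 0.04 (SE 0.30, 95% interval -0.65 to 0.73), for Chek1 -0.04 (SE 0.31, -0.76 to 0.67), for Trp53 0.10 (SE 0.32, -0.62 to 0.81) and for Trp63 -0.17 (SE 0.42, -1.11 to 0.78). Changes beyond -1.11 or 0.81 lay outside all 4 of these intervals. The low genes were open to larger changes: Mcl1 had 0.84 (SE 0.87, -1.11 to 2.80), Bax 0.60 (SE 1.42, -2.62 to 3.83), Pmaip1 1.85 (SE 1.93, -2.54 to 6.23) and Atm -3.13 (SE 1.84, -7.30 to 1.04). Leaving out 1 library moved the low ones by far, from 0.06 to 1.25 for Mcl1 (the first without MII NTY replicate 1), from -8.57 (without MII NTY replicate 1) to -2.55 for Atm, and from 0.75 (without MII NTY replicate 3) to 4.22 (without MII sham replicate 2) for Pmaip1. All 8 adjusted p-values were 1 (edgeR). The sign for Bax turned with the processing, to between -1.21 and -0.10 in 4 alternative fits.

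In follicle oocytes the intervals were too wide to show changes of ordinary size. Their reach to either side of the estimate was 4.96 to 6.49 log2 units at the primordial stage and 4.49 to 6.23 at the primary stage. The member with the lowest unadjusted p was Chek1 at the primordial stage (log2 fold change -4.26, interval -9.25 to 0.74, adjusted p = 0.545, edgeR), followed by Chek2 at the primary stage (-4.66, interval -10.33 to 1.00, adjusted p = 0.789, edgeR). Trp63 was at 1.47 (-3.90 to 6.84) at the primordial and 0.23 (-5.03 to 5.49) at the primary stage, and Bax at 3.33 (-3.16 to 9.82) and 2.34 (-3.89 to 8.56). A difference in these genes was thus not detectable at this spread, which is not the same as no difference. Median sums of marker genes also moved between these groups, but for each sum the sham and NTY ranges overlapped at both stages. From primordial sham to primordial NTY the median oocyte sum went from 582 to 157 TPM (ranges 359 to 1930 and 2.94 to 642). The median granulosa sum went from 579 to 3450 TPM and the stroma sum from 530 to 1920 TPM. From primary sham to primary NTY the medians were 572 and 546 TPM, 1350 and 1620 TPM, and 932 and 1540 TPM in the same order. Their part in the values of the members was not tested. Without primordial NTY replicate 3, the library with few oocyte transcripts, 0 members and 0 genes of all passed at the primordial stage, with 1145 genes at an unadjusted p under 0.05 (edgeR).

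**Figure D3:**
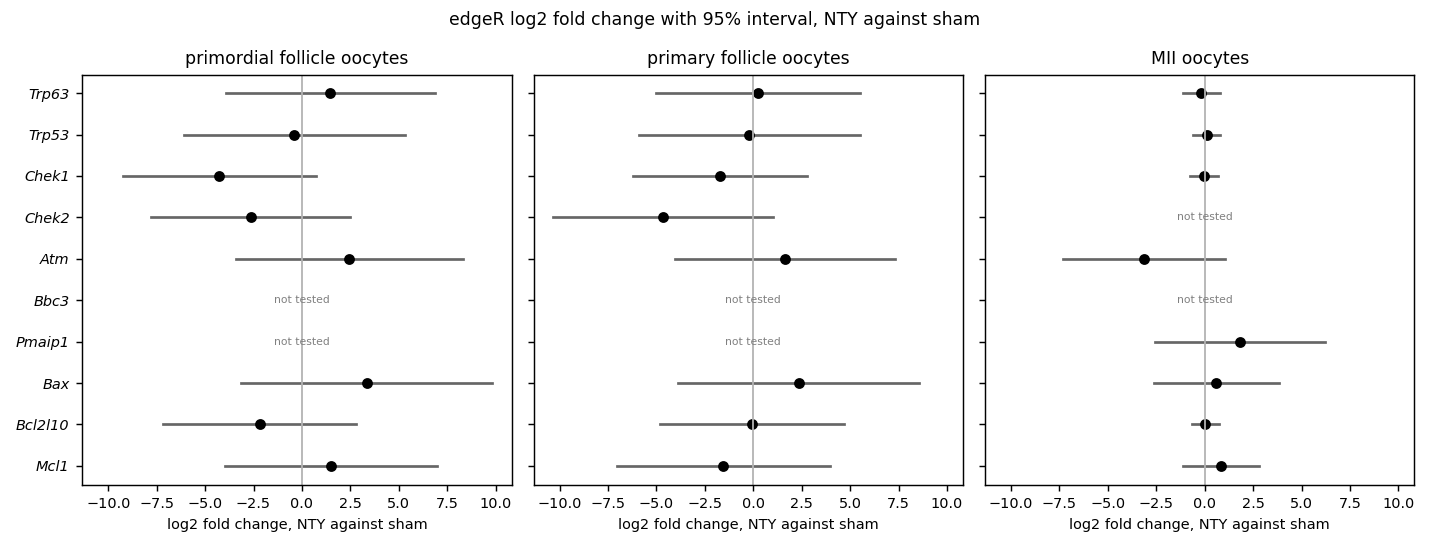
Log2 fold change of NTY against sham by edgeR for each gene (points), with its 95% interval (bars), at 3 stages; genes marked as not tested were removed by the filter on low counts. Every interval holds 0, and those of Bcl2l10, Chek1, Trp53 and Trp63 in MII oocytes reach no further than -1.11 and 0.81.

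The step from primordial to primary follicle, the first stage of growth, was compared within each treatment. In sham, 1 of 10522 genes passed (0.0095%) and none of the 8 members tested, and in NTY 0 of 10522 (0.0%) and no member. Unadjusted p-values under 0.05 numbered 976 and 1049 genes, and 0 members in each (edgeR), while DESeq2 called 503 and 697 genes and no member. Trp63 was 2.47 higher on the log2 scale in primary sham (interval -3.08 to 8.02) and 1.22 higher in primary NTY (-4.11 to 6.56), both short of the threshold (adjusted p = 1 and 0.947, edgeR). Mcl1 was at 2.23 (-3.39 to 7.84) in sham and -0.81 (-6.22 to 4.59) in NTY. The interaction, which asks whether NTY acted differently at these 2 stages, was called for 1 of 10522 genes (0.0095%) and for none of the 8 members, whose intervals reached 6.28 to 8.39 log2 units to either side.

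Follicle libraries also held granulosa (summed TPM 370 to 3690) and stroma transcripts (460 to 7490). In MII libraries these sums were 6.43 to 27.6 and 0 to 1.29 TPM. Other marker lists went the other way by median, in follicle against MII libraries. The medians were 0.569 against 52.5 TPM for endothelium, 0.837 against 7.84 TPM for steroid-making cells and 0.57 against 6.75 TPM for blood. Genes of dividing cells were at 70.9 against 43.6 TPM. Stage, library method and cell content therefore cannot be told apart in this comparison. Set against the follicle oocytes of the same treatment, MII oocytes had higher Bcl2l10 in both treatments. It was higher by 11.89 on the log2 scale in sham (SE 1.38, adjusted p = 6.6e-05, edgeR) and by 12.91 in NTY (SE 1.43, adjusted p = 3.8e-05, edgeR). Pmaip1 was also past the threshold (adjusted p = 0.017 in sham and 0.00989 in NTY, edgeR), but with 0 counts in all 12 follicle libraries it entered the test only through the MII libraries, so that its call is a description and not support. Mean MII CPM of Pmaip1 was 11.1 times the highest follicle floor of 3 counts in sham and 53.6 times that in NTY. Since the floor covers counting error only, it sets no upper limit on Pmaip1 in follicle oocytes, and these are not least fold changes. The ratio to the floor was 1.99 without MII sham replicate 2 and 27.9 without MII NTY replicate 3, and 1 MII library of each treatment had 0 counts. Chek1 was higher by 3.85 (SE 1.50, adjusted p = 0.0431, edgeR) and Atm lower, at -5.92 (SE 2.31, adjusted p = 0.044, edgeR), in NTY. In sham those 2 genes were at 1.05 and -0.52 (adjusted p = 0.588 and 0.829, edgeR), and the difference between treatments was not tested for this contrast.

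These calls need their background. In sham, 6695 of 15929 genes passed (42.0%), 5481 higher and 1214 lower, and 2 of the 9 members tested did, Pmaip1 among them. In NTY 7308 passed (45.9%), 5603 higher and 1705 lower, and 4 of 9 members did, so the members' shares were below the share of all genes in sham and close to it in NTY, and nothing particular to the members is read from them. The median log2 fold change of all genes was 1.67 in sham and 1.56 in NTY, and with size factors by relative log expression it became 3.21 and 2.99, with 90.2% and 84.6% of calls higher in place of 81.9% and 76.7%. Relative to those medians Bcl2l10 was 10.22 and 11.35 higher under the first scaling and 10.20 and 11.46 under the second. Chek1 in NTY was 2.29 above the median and Atm 7.48 below it, and with the second scaling the Atm call was lost (adjusted p = 0.0656, edgeR). Trp53 was 0.79 and 1.11 above the median, and with the second scaling it passed in both treatments (adjusted p = 0.0327 and 0.0401, edgeR).

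The Bcl2l10 call held when any 1 library of the groups compared was left out (adjusted p at most 0.00124, edgeR). The Pmaip1 call in sham was lost without MII sham replicate 2 (log2 fold change 5.23, adjusted p = 0.0754, edgeR), the library that held 58 counts of it against 7 in replicate 3. The Chek1 call in NTY was lost in 8 of the 9 fits that left out 1 library and held only without primordial NTY replicate 1, the follicle NTY library with the most Chek1. The Atm call was lost in 6 of 9 and reached -11.56 without MII NTY replicate 1, the only MII NTY library with Atm reads. Without primordial NTY replicate 3, 2 members were called, with adjusted p = 0.0598 for Chek1 and 0.0562 for Atm (edgeR).

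**Figure D4:**
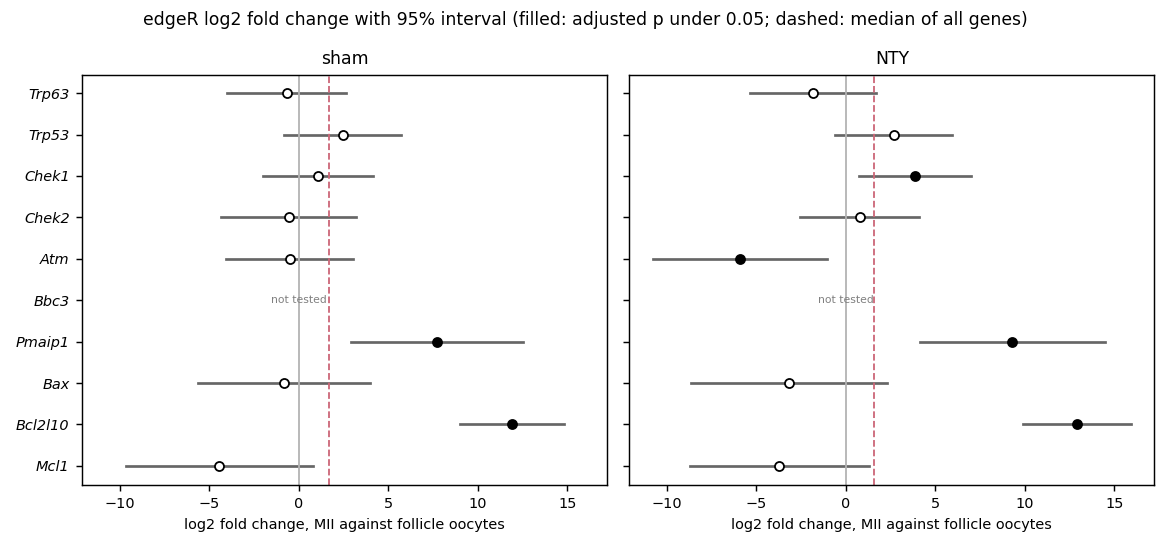
Log2 fold change of MII against follicle oocytes by edgeR (points) with its 95% interval (bars), within sham and within NTY; filled points passed an adjusted p of 0.05 and the dashed line is the median of all genes (1.67 and 1.56). Bcl2l10 lies at 11.89 and 12.91, far to the right of that line, and the value of Pmaip1 depends on how its 0 counts are handled.

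**Figure D5:**
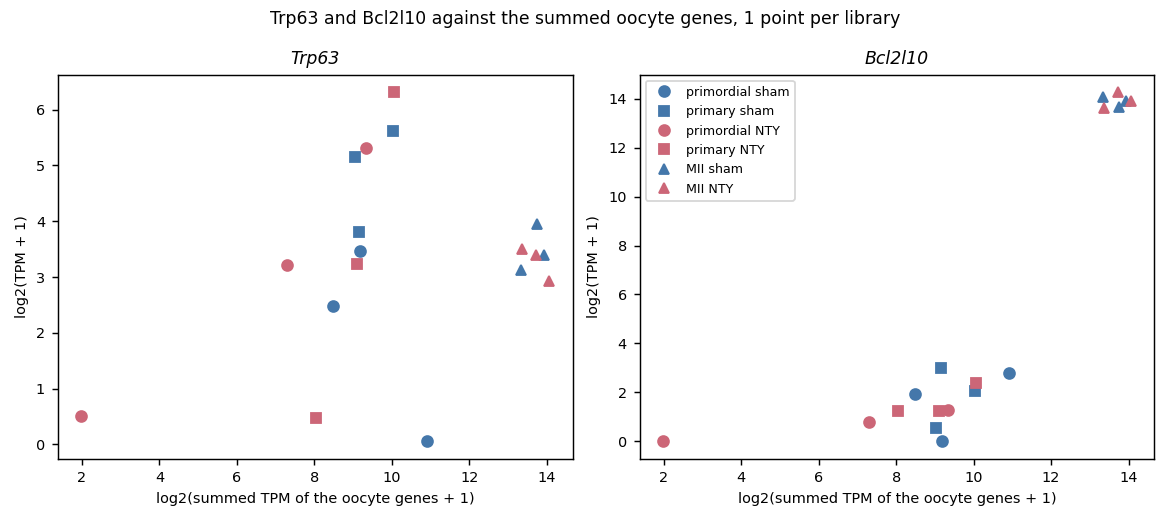
Trp63 and Bcl2l10 as log2(TPM + 1) against the log2 of the summed TPM of 13 oocyte genes + 1, 1 point per library, circles for primordial, squares for primary and triangles for MII oocytes, sham in blue and NTY in red. The 12 follicle libraries spread over an oocyte sum of 2.94 to 1930 TPM, and the MII libraries have a higher sum, with Trp63 at 6.66 to 14.4 TPM, within the follicle range.

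Around the 10 members, 66 further genes of the same machinery were listed, of which 64 were found. They covered checkpoint signalling, p53-family regulators and targets, kinases that act on p63, other BCL2 guardians, effectors and BH3-only genes, and the caspase cascade. In the 3 comparisons of NTY with sham, the 2 of follicle stage and the interaction, none of the 50 to 53 genes tested passed. Between MII and follicle oocytes 10 of 58 were higher and 1 lower in each treatment (19.0%), against 42.0% and 45.9% of all genes.

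Of those higher calls, 3 in sham (Bid, Bik and Cdkn1a) and 4 in NTY (the same and Cdc25c) were of genes too low for the fit over follicle libraries. They entered the test only through the MII libraries, where they are high, so they are given as values and support nothing.

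The BH3-only genes split. Bid, the BH3-only protein cut by caspase-8, had 0 to 0.911 TPM in follicle libraries and 25.5 to 41.7 TPM in MII libraries, and Bik 0 to 0.195 TPM against 13.7 to 35.1 TPM. Bcl2l11, which encodes BIM and was also tested in follicle libraries, had 0 to 1.04 TPM against 11.3 to 14.3 TPM (log2 fold change 5.61 in sham and 5.64 in NTY, adjusted p = 0.0136 and 0.013, edgeR). Bad was the reverse, with up to 112 TPM in follicle libraries, a median of 0 there, and 0 in all 6 MII libraries, and it did not pass. Bid, Bik and Bcl2l11 were thus present in every MII library, Bad was listed at 0 in all of them, and Bbc3 was detected in 1 of 6.

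Among p53-family regulators and targets, 2 of 16 tested were higher in sham and 3 in NTY, against 42.0% and 45.9% of all genes called. Cdkn1a was among them in both treatments, though it entered the test only through the MII libraries. Mdm2, which encodes the ubiquitin ligase for p53, ranged from 0 to 12.2 TPM in follicle and from 144 to 249 TPM in MII libraries and passed in both (5.35 and 5.10, adjusted p = 0.0157 and 0.0185, edgeR). Its relative Mdm4 ranged from 10.8 to 97.6 TPM against 141 to 307 TPM and passed in NTY (2.63, adjusted p = 0.0122, edgeR). Cdkn1a, the p21 brake on the cell cycle, had at most 0.898 TPM in follicle libraries and 0 to 11.8 TPM in MII libraries. The list's median was 1.73 in sham and 1.46 in NTY, close to that of all genes.

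Of the 3 kinases that act on p63, Csnk1d, a casein kinase 1 gene, was lower in MII oocytes in both treatments (-6.80 and -8.00, adjusted p = 0.00537 and 0.00276, edgeR). It was at 0.126 to 4470 TPM in follicle libraries, with a median of 348, and at 0.528 to 6.56 TPM in MII libraries. Its relative Csnk1e was at 285 to 565 TPM in MII libraries and did not pass (0.28 and 0.93, adjusted p = 0.866 and 0.516, edgeR), nor did Abl1.

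In checkpoint signalling, Timeless, of the fork protection complex, passed in both treatments (4.40 and 4.51, adjusted p = 0.046 and 0.0398, edgeR). Its partner Tipin and the clamp loader Rad17 passed in sham, and Rad1, Brca1 and Cdc25c in NTY, so that 3 and 4 of 20 tested were higher and none lower. Cdc25c entered the test only through the MII libraries, so its call supports nothing. Of all genes, 42.0% were called in sham and 45.9% in NTY. In the caspase cascade Casp8 and Diablo were higher in sham (5.37 and 4.44, adjusted p = 0.0274 and 0.0337, edgeR), 2 of 10 tested, and none in NTY. None of the listed BCL2 guardians or effectors passed. Bcl2l1, which encodes BCL-XL, was at 75.8 to 105 TPM in MII libraries and 0.0276 to 116 TPM in follicle libraries. The effectors Bak1 and Bok were at no more than 0.118 and 0 TPM in MII libraries.

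Genes with the pattern most like that of Trp63 across the 12 follicle libraries, by Pearson's r of log2(TPM + 1) over 6191 genes, were Crk (0.94), Zcchc2 (0.93) and Clasrp (0.91), with 0.80 at rank 100. For Bcl2l10 they were Mphosph6 (0.88), the oocyte gene Nlrp4f (0.85) and Hif1a (0.85), with 0.72 at rank 100. These are the highest of 6191 values over 12 libraries that share amplification and tissue admixture, and are a description.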

How the data were processed

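RNA from 18 oocyte libraries was sequenced. Per the labels, reads were trimmed with Trim Galore 0.4.1, aligned to mm10 with TopHat2 and counted with featureCounts (submitters' processing notes; strand and multi-mapping settings are not given in the sources used here). The authors deposited raw counts for 53715 genes and TPM values for 28252 of them, each library summing to 1000000.

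Counts were tested with edgeR 4.0.16 (TMM scaling, filterByExpr, robust quasi-likelihood F test, Benjamini-Hochberg over all genes tested, adjusted p under 0.05, two-sided): a fit over the 12 follicle libraries (10522 genes, common dispersion 3.59), a fit over the 6 MII libraries (12209 genes, 0.542) and, for MII against the mean of both follicle stages, a fit over all 18 (15929 genes, 2.55). Fits were run on simulated counts, where recovery of known changes was required only at a dispersion of 0.1, below those of these data. That checks the code and not the power to find changes at the spread seen here. Alternatives were relative log expression scaling, other count filters, DESeq2 1.42.0, voom with quality weights, limma on log2(TPM + 1) or log2(TPM + 0.1), a replicate block, each library left out, and primary NTY replicates 2 and 3 summed, since their codes are alike. Replicates differed beyond sampling noise (chi-square per degree of freedom at least 34.1). Exact permutation tests of within-library ratios and the test of the difference for Atm were chosen after the data were seen. So was the ratio of Pmaip1 to the floor with a library left out.

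Members and gene lists were chosen with earlier results of these data known. Fold changes were to be given for members with an unadjusted p under 0.05 and for MII NTY against sham; others were added, for their intervals, after the values were seen. Named besides the members were listed genes past the threshold or among the 3 lowest p-values of their list and, for likeness, the 3 highest correlations for Trp63 and Bcl2l10. Starts came from RefSeq (GRCm38.p6) and overlaps from GENCODE M21, with 53620 of 53715 gene identifiers matched.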

Additional observations from a re-analysis of the deposited data

Results flagged for a closer look

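Atm was singled out because its libraries moved in opposite ways at 2 stages. At the primordial stage all 3 NTY libraries were above all 3 sham libraries (mean CPM 8.43 against 1.69), and in MII oocytes all 3 NTY libraries were below all 3 sham libraries (mean CPM 0.573 against 5.03). The difference between these effects, MII minus primordial, was -5.81 on the log2 scale (SE 2.92, 95% interval -11.94 to 0.31, adjusted p = 0.54 over all genes, edgeR), so it did not pass, and the contrast was chosen after the values were seen. The MII NTY mean rests on 15 counts in replicate 1 and 0 in the others, and the primordial sham mean on 0, 65 and 60 counts. How many of all genes separate in this way was not counted.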

How the results depend on the processing

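No member was called in the comparisons of NTY with sham, of follicle stage or of their interaction under any alternative that tested members. The number of all genes called there did move. At the primordial stage NTY against sham gave 2 with relative log expression scaling, 0 with at least 10 counts in every library (84 unadjusted), 760 with DESeq2, 0 with voom (801 unadjusted), 3 with primary NTY replicates 2 and 3 summed and 6 from the groups alone; at the primary stage DESeq2 gave 479, voom 58, and TPM + 1 and + 0.1 gave 3 and 2. Primary against primordial in sham gave 0 with any count as the filter, with at least 10 counts and with the groups alone (1742, 29 and 455 unadjusted), 503 with DESeq2, 104 with voom and 4 with each TPM fit; in NTY it gave 697 with DESeq2 and 2 with voom. The interaction gave 11 with any count, 0 with at least 10 counts (69 unadjusted), 742 with DESeq2, 6 with voom and 0 with the replicates summed (1310 unadjusted), and MII NTY against sham 29 with DESeq2. MII against follicle oocytes gave 315 in sham and 352 in NTY with at least 10 counts, where only 1040 genes were tested, and 3660 in sham against primary follicle oocytes alone. Members called there were, in sham, 4 with voom and 1 with TPM + 0.1, with primary or with primordial oocytes alone, and in NTY 2 with any count, with the replicates summed and with either stage alone; Bcl2l10 was called in all 19 alternatives of each treatment. The Pmaip1 adjusted p ranged up to 0.155 in sham and 0.0576 in NTY, that of Chek1 from 0.000848 to 0.136 and that of Atm from 0.000903 to 0.133. The Bax change in MII NTY turned to -0.40 under the replicate block, -0.10 with voom, -0.23 with TPM + 1 and -1.21 with TPM + 0.1; the cause was not tested.

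Leaving out 1 library gave 0 to 3 genes for primordial NTY, 0 to 2 for follicle stage in sham and 0 to 8 for the interaction, and 1 to 2 members for MII against follicle oocytes in sham and 2 to 3 in NTY. In MII NTY against sham the values then ran from -0.09 to 1.19 for Bax, -0.43 to 0.11 for Chek1, -0.17 to 0.32 for Bcl2l10, -0.07 to 0.27 for Trp53, -0.39 to 0.05 for Trp63, 0.06 to 1.25 for Mcl1, -8.57 to -2.55 for Atm and 0.75 to 4.22 for Pmaip1. Samples share only replicate numbers (correlations of same-numbered deviations -0.0576 to 0.0644). A fit with the replicate block called 1, 0 and 0 genes for NTY at the primordial, primary and MII stages, 2 members in sham and 3 in NTY for MII against follicle oocytes, and gave Atm an adjusted p of 0.0729 there. Filtering at 10 counts in every library left 5 members in the MII fit (0.86 for Mcl1, -0.16 for Trp63) and no member in the fits with follicle libraries. Bbc3, Pmaip1 and Chek2 were at or near 0 counts in most libraries, and the part of depth in this was not tested.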
